A study of Mus musculus with 4 samples.

Results

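The neurotrophins and their receptors were followed in area CA1 of the hippocampus of control mice. The genes considered were Bdnf and Ntf3 (ligands) and Ntrk2, Ntrk3 and Ngfr (receptors). A gene entered if the platform annotation gave a probe set, the set of oligonucleotides that together measure a transcript, exactly 1 symbol and that symbol was on the list. Of the 5 genes, 3 entered with 1 probe set each: Bdnf, Ntrk2 and Ntrk3. They stand among 10833 probe sets with 1 symbol, which cover 8251 genes. Ntf3 and Ngfr were not analysed here.

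The RNA came from young male C57BL/6J mice, an inbred strain, which had been handled and had received no other treatment. The 4 samples are 1 group of handled controls. RNA was taken 1, 2, 4 and 6 hours after other mice, the shocked animals of the same experiment, had received their last shock, with 1 sample at each time. Whether RNA of several mice was pooled is not stated, so differences among the 4 arrays hold time, animal, dissection and hybridization together, and p-values measure only that spread. Values are signals as deposited, on a linear scale, unless a log2 difference is named.

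Neurotrophins are secreted dimers made as larger precursors. Mature BDNF, the product of Bdnf, acts through the receptor tyrosine kinase TrkB, which Ntrk2 encodes. NT-3, the product of Ntf3, acts mainly through TrkC, which Ntrk3 encodes, and the p75 receptor, the product of Ngfr, binds all neurotrophins and their precursors. In the hippocampus BDNF is known for its role in long-term potentiation and for induction of its gene by neuronal activity. Ntrk2 and Ntrk3 each give a full-length kinase receptor and truncated forms without the kinase, and truncated TrkB is abundant in astrocytes.

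Bdnf is transcribed from several start sites whose first exons are spliced to a shared coding exon. RefSeq promoter windows of the build GRCm38.p6, from 250 bases before to 50 bases after a start, matched 7 windows for Bdnf, 2 for Ntf3, 1 for Ntrk2 and 1 for Ngfr. The part of the transcript that the Bdnf probe set targets is not given in the sources used here, so a Bdnf signal cannot be assigned to a start. To show what such a start looks like, the 7 Bdnf windows were searched on both strands for TGACG, an arm of the palindrome TGACGTCA that the activity-regulated factor CREB binds. TGACG was found in 1 of the 7 windows, and 20.8% of 32851 promoter windows of all genes hold it. That window lies at chr2:109692186-109692485 on the plus strand, and the match lies on the minus strand, so that capitals mark its reverse complement CGTCA, which begins 35 bases before the start. TGACGTCA itself was in none of the 7 windows and in 1.79% of all windows. Of the E-box motifs, which helix-loop-helix factors bind, CACGTG was in none of the 7 windows and in 7.15% of all, and the general form CANNTG, which includes it, was in 6 of the 7 and in 72.3% of all. The window is printed because it is the only Bdnf start with TGACG, and the match is a description of the letters, not of binding.
Bdnf promoter window: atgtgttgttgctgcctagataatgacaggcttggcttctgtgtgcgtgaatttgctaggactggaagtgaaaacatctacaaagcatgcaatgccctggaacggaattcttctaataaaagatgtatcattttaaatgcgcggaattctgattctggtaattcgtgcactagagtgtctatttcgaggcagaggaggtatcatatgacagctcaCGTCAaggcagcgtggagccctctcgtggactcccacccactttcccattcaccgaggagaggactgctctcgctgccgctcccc

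The 1-hour sample stood apart from the others before any gene was considered. The 3' over 5' signal of Gapdh control probe sets, a sign of RNA integrity and labelling, was 4.52 in that sample, against 1.18 to 1.37 in the other 3. The same ratio of the actin control probe sets was 2.34 there, against 1.76 to 2.00 elsewhere. Across the 7453 tested probe sets Pearson's r of log2 values was 0.927 to 0.933 in pairs that include it, against 0.955 to 0.961 in the rest. Of 9 marker genes of CA1 pyramidal neurons, 4 were matched to a probe set by symbol and 3 of these were tested. A further listed gene, Nov, was not matched. A probe set under its current symbol, Ccn3, was on the array and is left out of the sums. Wfs1, a membrane protein of the endoplasmic reticulum enriched in CA1 pyramidal neurons, had 2292, 2274, 2797 and 1964 in the order of hours. The other matched CA1 markers that were tested, Neurod6 and Pou3f1, were above the floor of 35.1, below which values were not ranked, in all samples too. So were genes on the lists for neighbouring fields. Rgs14, listed for CA3 and CA2, had 5017 to 5790, and Calb1, listed for dentate granule neurons, had 1545 to 1755. These levels do not tell CA1 from the rest of the hippocampus.

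Bdnf, the ligand, gave a bright and even signal. It had 2223, 2299, 2281 and 1711 in the 1-, 2-, 4- and 6-hour samples, and lay between the 91.3rd and the 93.8th percentile of probe sets on each array. The first 3 samples were within a factor of 1.03 of each other, at 2268 ± 40.02 (SD, n = 3), and the 6-hour sample was the low one. Over all 4 samples the signal was 2129 ± 280 (SD, n = 4), a coefficient of variation of 13.2%.

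The lower Bdnf value of the 6-hour sample did not pass the test against the other samples. The 6-hour sample lay at a log2 difference of -0.43 (SE 0.20) from the mean of the other 3, a factor of 1.34 on normalized values, with an adjusted p of 0.999 by limma. The spread of the other 3 was 0.04 (SD of log2 values). Among all tested probe sets 9.49% lay lower than Bdnf in that sample, 0.0% were called lower and 0.0% higher there, while 169 (2.27%) passed 0.05 before adjustment. At 2 and 4 hours Bdnf lay at 0.21 (SE 0.24) and 0.12 (SE 0.25) from the other 3, with an adjusted p of 1.00 by limma in both, and 0.0% of tested probe sets were called in either direction there. The 6-hour sample was the lowest of the 4 for 24.0% of all tested probe sets, and 1.95% shared both features of Bdnf, a lowest 6-hour value and the other 3 within 0.1 log2 unit. Of 11 marker sums, 4 were lowest in that sample and 4 were highest. The highest were oligodendrocytes and precursors at 25357, against 20365 to 23537, and CA3 and CA2 at 10938, against 7563 to 10771. The others were dentate granule neurons at 2644, against 2446 to 2556, and basal forebrain cholinergic neurons at 1105, against 636 to 1079. Of the oligodendrocyte list 9 of 13 genes had a probe set, and of the dentate list 7 of 9. The sum of CA1 pyramidal markers, 4 of 9 matched to a probe set and none at the floor in all samples, was 3732 there, against 3890 to 4389 in the others. It was carried by Wfs1, at 1964 against 2274 to 2797, and without Wfs1 the 6-hour sum was not the lowest. Of the 3 tested CA1 markers, 2 lay above the mean of the other samples there and 1 below it. Markers of endothelium and pericytes, 12 of 12 with a probe set and none at the floor in all samples, summed to 2410 there, against 2796 to 3460. Those of meninges, 9 of 9 with a probe set and Aldh1a2 at the floor in all samples, summed to 10902, against 13250 to 19080. Those of choroid plexus and ependyma summed to 1413, against 1434 to 3726, and without Ttr to 1270, against 1235 to 1480. Their part in the Bdnf value was not tested, and in bulk tissue fewer cells of a type cannot be told apart from less RNA per cell.

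**Figure D1:**
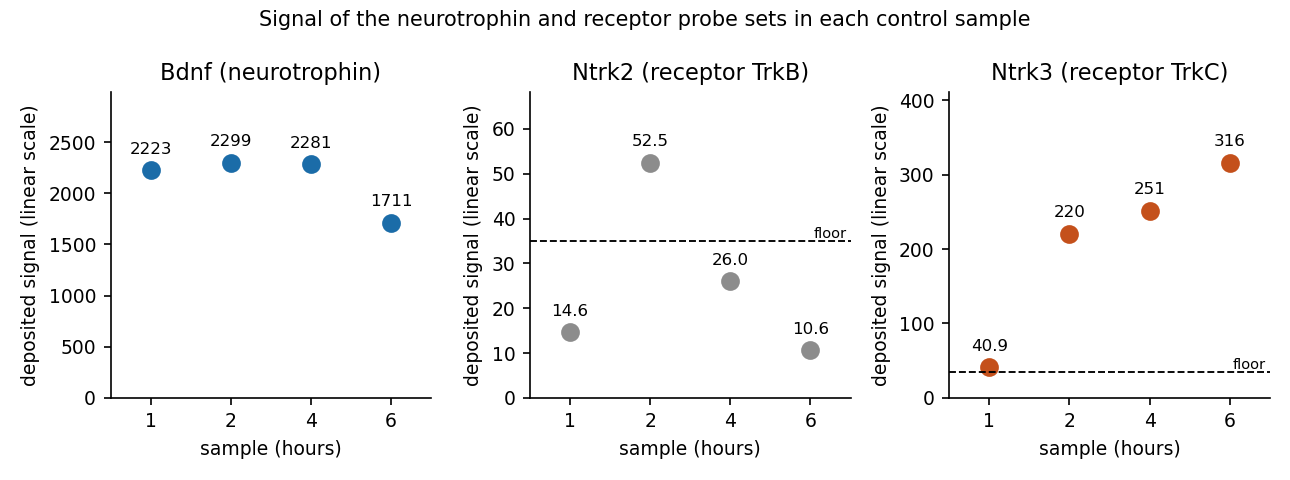
Deposited signal (linear scale, from 0) of Bdnf, Ntrk2 and Ntrk3 in each control sample against hours, 1 point per array, with the floor of 35.1 as a dashed line for both receptors. Bdnf is even but for 1711 in the 6-hour sample, Ntrk2 is above the floor in the 2-hour sample alone, and Ntrk3 is at 40.9 in the 1-hour sample against 220.2 to 316 in the others.

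Ntrk2, the receptor of BDNF, was not measured well by its probe set. It had 14.6, 52.5, 26.0 and 10.6 in the order of hours, between the 6.54th and the 25.7th percentile of each array. A floor was set at 35.1, the 20th percentile of all normalized values, below which values have no order. The 1-, 4- and 6-hour samples were at the floor, and only the 2-hour sample was above it. The probe set failed the filter on dim signals, so it entered no test, and no fold change is given for it, since any difference from the samples at the floor depends on where the floor is set. A low signal of a probe set does not give the level of the gene, since probe sets differ in how brightly they report a transcript, and whether this one reads full-length or truncated TrkB is not given in the sources used here.

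Ntrk3, the receptor of NT-3, was low in the 1-hour sample. It had 40.9 in that sample, just above the floor, and 220.2, 251 and 316 in the 2-, 4- and 6-hour samples. The 1-hour sample was thus the lowest, as it was for 2173 of the 7453 tested probe sets. The mean of the other 3 was 262.5 ± 49.1 (SD, n = 3). On the log2 scale the 1-hour sample lay at -2.69 (SE 0.41) from them, a factor of 6.45 on normalized values, where the SD of the other 3 was 0.27. The size of that difference depends on the floor, beside which the 1-hour value lies, and a floor at the 40th percentile gave -1.19. The adjusted p by limma was 0.0191, and it was 0.0109 to 0.210 over the alternative settings, above 0.05 in 4 of them, among them the fit without the 6-hour sample (0.0652). In this fit the spread is that of the other 3, moderated toward that of probe sets of like intensity, and the p describes how far 1 array lay from the others and is no test of the hour.

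Ntrk3 was far out in a sample where many probe sets were low. In the 1-hour sample 2.11% of tested probe sets were called lower and 0.242% higher, 15.8% had an unadjusted p under 0.05, and 4.56% lay 2-fold or more below the mean of the other 3. Only 11 of the 7453 tested probe sets had a lower difference than Ntrk3 in that sample, and 2.82% lay 1 log2 unit or more below each of the other samples, as Ntrk3 did. The Gapdh ratio was 4.52 in the same sample, against 1.18 to 1.37 in the other 3, and its part in the Ntrk3 value was not tested. Of the 11 marker sums, 3 were lowest in the 1-hour sample and 2 were highest. The sum of CA3 and CA2 markers, 6 of 10 with a probe set and Coch and Pcp4 at the floor in all samples, was 7563 there, against 10389 to 10938. It was carried by Nnat, at 890.7 against 4524 to 5005 (log2 difference -2.40, adjusted p = 0.00136, limma), and without Nnat it was 6672 against 5865 to 6112. The astrocyte sum, 11 of 14 with a probe set and none at the floor in all samples, was 53125 there, against 56682 to 61782. It was carried by Apoe, at 20959.5 against 24999.8 to 31735.8 (log2 difference -0.65). Without Apoe the 1-hour sum was not the lowest. Of the 11 tested astrocyte genes, 8 lay below the mean of the other samples there and 3 above it. Markers of basal forebrain cholinergic neurons, 4 of 8 with a probe set, 1 tested and Slc18a3 at the floor in all samples, summed to 636 there, against 879 to 1105. That sum was carried by the tested gene, Ache, at 541 against 833 to 1027.5. Without Ache the 1-hour sum was not the lowest. The sum of choroid plexus and ependyma markers, 7 of 10 with a probe set and none at the floor in all samples, was 3726 there, against 1413 to 1729, and was carried by Ttr, at 2246 against 143 to 353. Without Ttr it was 1480 against 1235 to 1376. Interneuron markers, 10 of 10 with a probe set and none at the floor in all samples, summed to 43629 there, against 36657 to 40502. Their part in the Ntrk3 value was not tested.

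**Figure D2:**
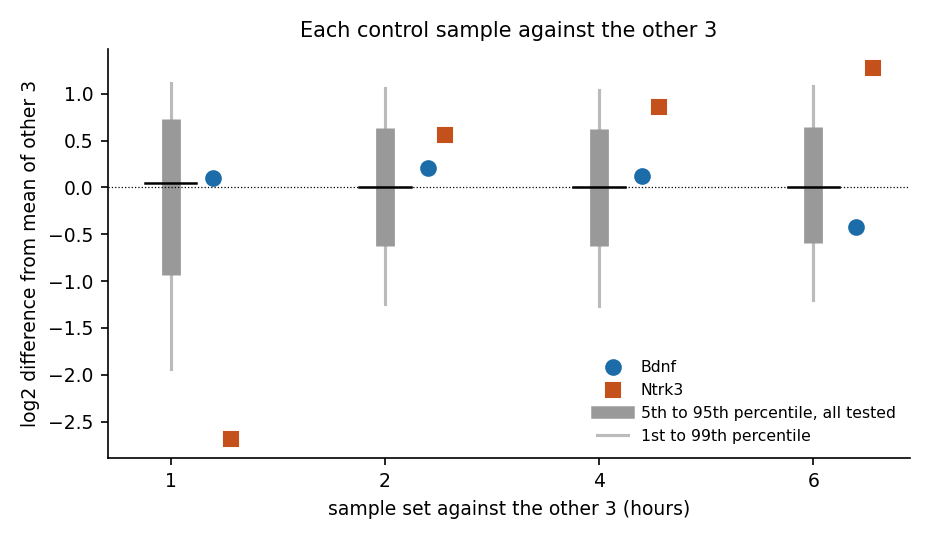
Log2 difference of each sample from the mean of the other 3 for Bdnf (circles) and Ntrk3 (squares), 1 value per gene and sample, against the hours of that sample, beside the 5th to 95th percentile (thick bars), 1st to 99th percentile (thin lines) and median (ticks) of all 7453 tested probe sets. Ntrk3 lies at -2.69 in the 1-hour sample, below the 1st percentile of -1.94, and Bdnf lies between -0.43 and 0.21 in all 4.

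The 4 times were then tested for a steady change, with the fitted log2 change over the hours from first to last. Ntrk3 had a positive slope of 2.42 (SE 0.84, adjusted p = 0.740, limma) and Bdnf a negative one of -0.40 (SE 0.23, adjusted p = 0.750), so neither passed. Over all probe sets 0.0% were called with a rise and 0.0% with a fall by limma, and 465 (6.24%) had an unadjusted p under 0.05. Ntrk3 had a higher value at each later time, a pattern that 4.86% of tested probe sets showed, and over the later 3 samples alone 14.6% rose at both steps. Most of its slope lay in the first step, 2.43 log2 units up to the 2-hour sample, against 0.23 up to the 4-hour and 0.31 up to the 6-hour sample. The later steps were of the size seen elsewhere, since 47.6% and 64.6% of tested probe sets had smaller steps there. Without the 1-hour sample the slope of Ntrk3 was 0.68, and without the 6-hour sample that of Bdnf was -0.002.

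Over all 4 samples the spread was wide for Ntrk3. Ntrk3 had a range of 2.97 log2 units, and 22 of the 7453 tested probe sets had a wider one. A range of 1 log2 unit or more was found for 17.9% of tested probe sets. Without the 1-hour sample the range of Ntrk3 was 0.54, wider than that of 68.7% of tested probe sets, and 9.06% reached 1 log2 unit. Bdnf had a range of 0.47 over 4 samples, wider than that of 39.4% of tested probe sets, and the same range of 0.47 without the 1-hour sample, wider than that of 62.5% of them, so that both genes then lay close together.

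**Figure D3:**
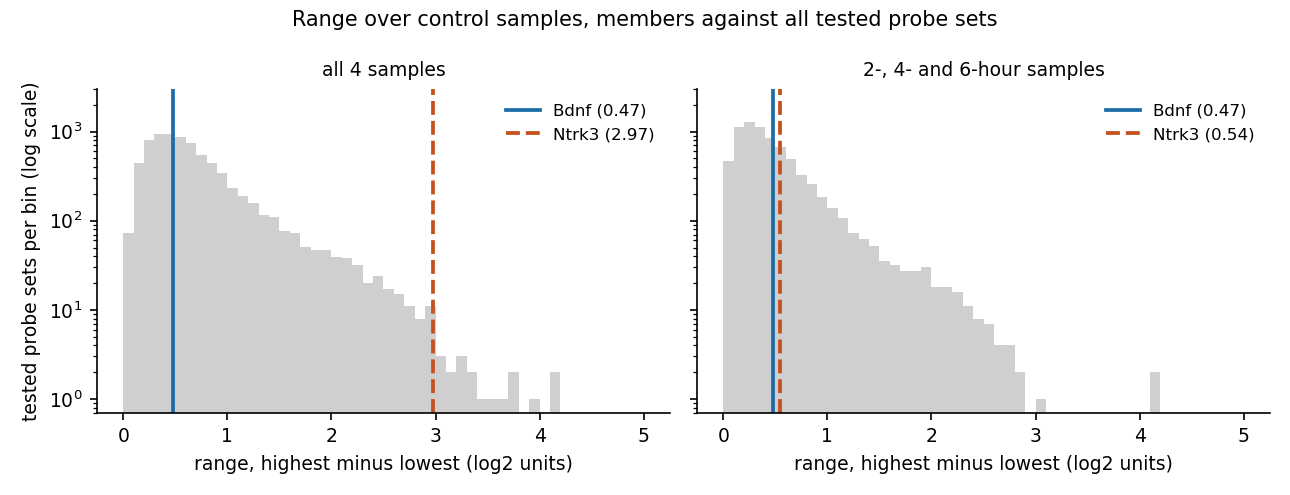
Histogram of the range, highest minus lowest log2 value, over all 4 samples (left) and over the 2-, 4- and 6-hour samples (right) for the 7453 tested probe sets, with the number per bin on a log axis and Bdnf (solid) and Ntrk3 (dashed) as lines. Ntrk3 lies at 2.97 in the tail on the left and at 0.54 beside Bdnf on the right.

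The genes most like each member over the 4 samples were found by the root mean square difference of centred log2 values, among 6714 other probe sets with 1 symbol and no sample at the floor. The nearest to Bdnf were Cul2, a scaffold of ubiquitin ligases, at 0.008, Slc6a13, a transporter of GABA, at 0.02, and Tox4, a nuclear HMG-box protein, at 0.02. Slc6a13 is also on the list of meninges markers, whose sum was lowest in the 6-hour sample. Cul2 had 937, 1025, 951 and 734 over the hours, so that its 6-hour sample was the low one too. Such likeness was common, as 157 probe sets lay within 0.1 of Bdnf. The nearest to Ntrk3 were Rab7, a GTPase of late endosomes, at 0.10, Rcc2, a regulator of chromosome condensation, at 0.12, and Gnao1, the alpha subunit of the neuronal G protein Go, at 0.12. Rab7 had 163.1, 752.5, 890.3 and 1176 over the hours, the same order of samples as Ntrk3. Only 7 probe sets lay within 0.2 of Ntrk3. The likeness to Ntrk3 rests on the 1-hour sample, since over the later 3 samples alone, a comparison chosen after seeing the data, 1666 probe sets lay within 0.2 of it, and 53, 487 and 551 lay nearer to it than Rab7, Rcc2 and Gnao1. For Bdnf 2, 6 and 10 probe sets then lay nearer than Cul2, Slc6a13 and Tox4. By a letter in their names, the array maker marked the probe sets of Tox4, Rab7, Nnat and, among genes named below, Cpe and Crem as shared with related transcripts. Those of Pcsk5 and Junb were marked as chosen under relaxed rules, and that of Fgfr3 as an incomplete set.

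**Figure D4:**
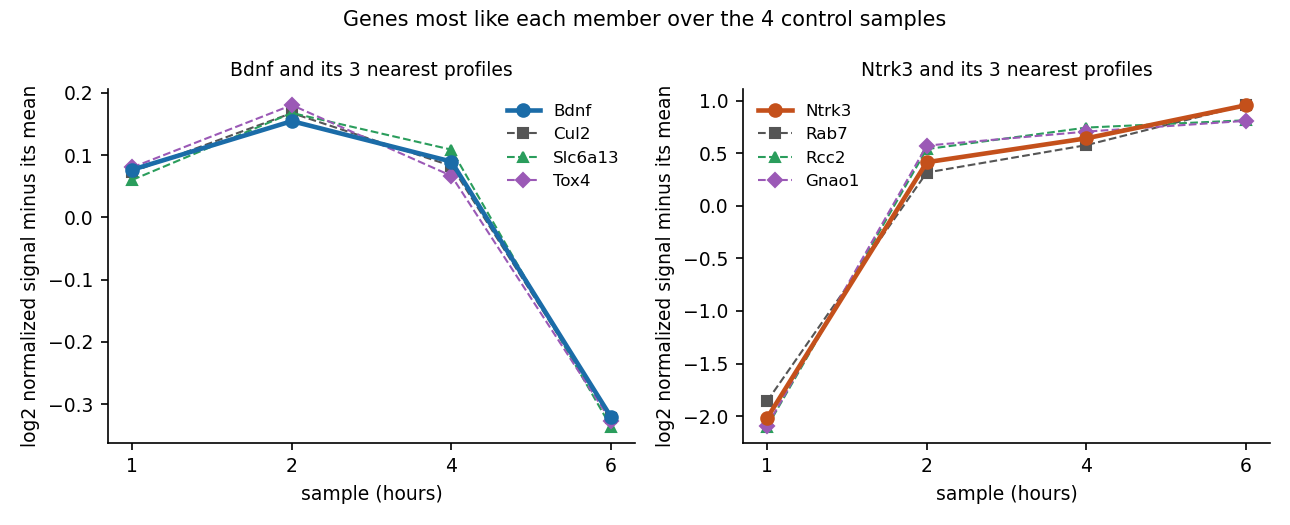
Normalized log2 signal minus its mean over the 4 samples, against hours, for Bdnf (left) and Ntrk3 (right), each with the 3 genes of smallest root mean square difference, 1 point per array. The Bdnf group falls together in the 6-hour sample, and the Ntrk3 group is about 2 log2 units below its mean in the 1-hour sample.

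Other genes of the pathway were taken from 8 lists of 189 genes in all, of which 134 had a probe set and 96 were tested. None of the 96 had a trend that passed with limma, and 6 (6.25%) had an unadjusted p under 0.05, against 6.24% of all tested probe sets. The range reached 1 log2 unit for 20 of 96 (20.8%), against 17.9% of all, and for 9 (9.38%) without the 1-hour sample, against 9.06%. The median trend was -0.05 over the list genes and -0.02 over all tested probe sets. Without the 1-hour sample 2 of 97 list genes (2.06%) had a trend with an unadjusted p under 0.05, against 3.10% of all, and the median trends were -0.09 and 0.002. In the 1-hour sample 4 of 96 (4.17%) were called lower and 0 higher, against 2.11% and 0.242% of all. These calls depended on the settings, as 0 list genes were called lower with the floor at the 40th percentile or without an intensity trend in the prior, 1 with no filter and 7 on values as deposited. Without the 2-hour sample 1 was called, and without the 6-hour sample 2. Of the 4 genes, which are Pcsk6, Arnt2, Nptx1 and Sqstm1, none kept its call with that floor or that prior, and the highest adjusted p over the settings was 0.0717, 0.142, 0.173 and 0.177 in that order (limma).

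Ligands and receptors outside the 5 genes were thinly covered, with 1 of 8 on the array and tested. It was Sorl1, a sorting receptor of the sortilin family, at 238, 335.6, 161.5 and 193.2 in the order of hours. Of 17 genes that process or convert precursors, 6 were tested. Pcsk6, a proprotein convertase, was called lower in the 1-hour sample, at 79.0 against 439.8, 396 and 355 in the later samples (log2 difference -2.31, adjusted p = 0.0113, limma). Plat, the tissue plasminogen activator, whose product plasmin can cleave the BDNF precursor, had 1199.8, 1391, 959 and 939 from the first hour to the last and passed no test. Cpe, a carboxypeptidase of secretory granules, and Pcsk5, a further convertase, had ranges of 0.32 and 0.57 log2 units.

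Below the receptors, 17 of 33 Trk adaptors and proximal effectors were tested. Sqstm1, a scaffold of the Trk endosome and of autophagy, was called lower in the 1-hour sample, at 1407 against 2575, 2754 and 2809.5 in the later samples (log2 difference -0.93, adjusted p = 0.0203, limma). Pik3r1, a regulatory subunit of phosphoinositide 3-kinase, had 141, 318, 238 and 261 over the hours, and Pik3ca, its catalytic partner, had 746, 546, 422 and 431. The 1-hour sample was thus the lowest for Pik3r1 and the highest for Pik3ca, and neither passed a test. Nck2, an adaptor, had a range of 1.11 log2 units.

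In the cascade of Ras, MAP kinases and Akt, 10 of 25 were tested and none was called. Akt1, a survival kinase, had 636 in the 1-hour sample, against 1273, 1382 and 1113 later (log2 difference -0.94, adjusted p = 0.0546, limma). Akt2 had 530.0 there and 672.5 to 1121 in the others, and Map2k5, the kinase of ERK5, had 445 there and 668 to 959.8 in the others. Map2k2, a kinase of ERK, was the other way round, with 538 in that sample, against 337 to 397 later. Of the partners and effectors of p75, 16 of 26 were tested and none was called. Rhoa, the GTPase that p75 regulates, lay at -1.11 in the 1-hour sample on the log2 scale, with signals of 546 to 771 later. Further tested probe sets of Rhoa lay at -0.79 and -0.23 in that sample. Mapk9, a JNK kinase, had 129, 398, 217 and 409 over the hours. Adam10, a membrane protease, and Smpd2, a sphingomyelinase, had ranges of 0.73 and 0.65.

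Of the genes that regulate Bdnf transcription, 14 of 25 were tested. Arnt2, the partner of the activity-induced factor NPAS4, was called lower in the 1-hour sample, at 70.8 against 265, 338 and 292 in the later samples (log2 difference -2.06, adjusted p = 0.0249, limma). Mef2c, a transcription factor of neurons, had 116 at first, against 245 to 478 later, and was not called. Hdac1, a histone deacetylase, and Crem, a relative of CREB, had ranges of 1.46 and 1.19. Of the genes known to be induced by BDNF in neurons, 17 of 25 were tested. Nptx1, a secreted protein of excitatory synapses, was called lower in the 1-hour sample, at 418 against 1131, 1354 and 1004 in the others (log2 difference -1.42, adjusted p = 0.0211, limma). Egr2, an activity-induced transcription factor, had 180.2, 257, 193 and 93.2 over the hours, and Fos had 340.2, 257, 300.1 and 189. Both had their lowest value in the 6-hour sample, as Bdnf did, and so did 3 of the 17 genes of this list in all, against 24.0% of all tested probe sets. Junb, at 339 in the first sample and 493 to 885 later, did not follow them.

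Other trophic factor families served as a neighbouring set, with 15 of 31 tested and none called. Artn, a ligand of the GDNF family, had 191, 332, 89.9 and 154 over the hours, the widest range of the list at 1.81 log2 units. Pspn, a further GDNF-family ligand, had 346, 345, 119 and 331, and was low in the 4-hour sample. Gfra3, the receptor subunit for artemin, had a range of 1.54 and Fgfr3, a receptor of fibroblast growth factors, 1.25. Without the 1-hour sample 4 of these 15 genes (26.7%) reached a range of 1 log2 unit, against 9.06% of all tested probe sets. On each of the other 7 lists 0 to 2 genes did. These were the 1 tested gene of the ligand and receptor list, and 0.0% to 14.3% of the tested genes on the rest. Differences between lists were not tested.

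**Figure D5:**
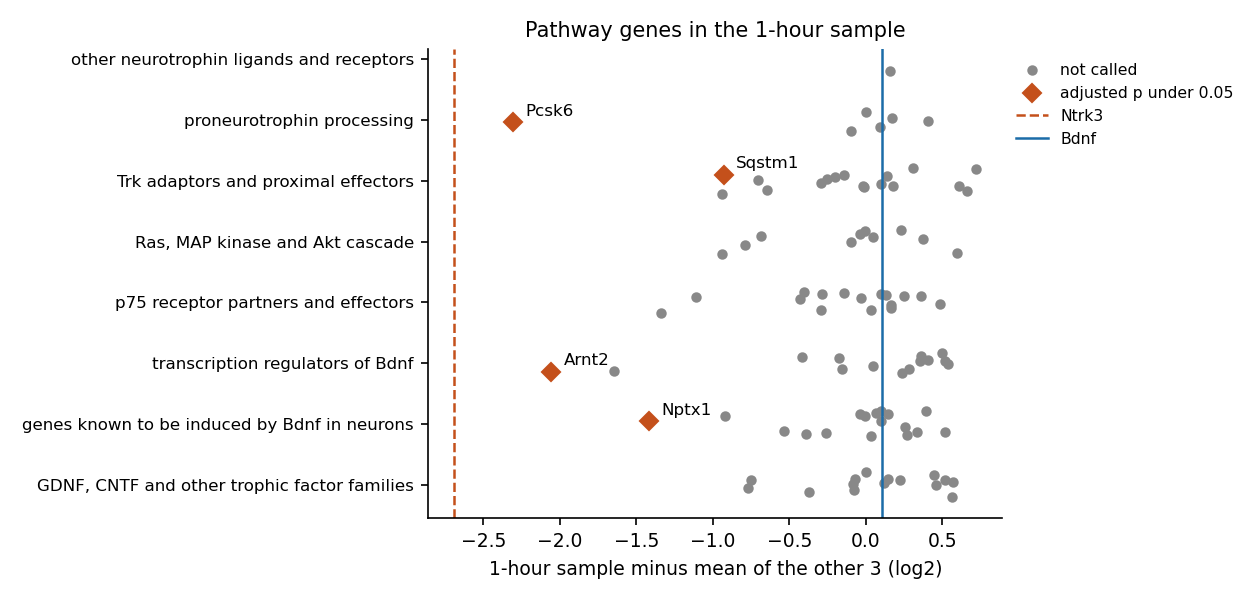
Log2 difference of the 1-hour sample from the mean of the other 3 for each of 96 tested pathway genes, 1 point per gene, in rows by list (vertical scatter within a row has no meaning), with Ntrk3 (dashed line) and Bdnf (solid line). Pcsk6, Arnt2, Nptx1 and Sqstm1, drawn as diamonds, had an adjusted p under 0.05, and all lie at higher values than Ntrk3 at -2.69.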

How the data were processed

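RNA of 4 handled control CA1 samples was measured on 1-colour arrays. The authors deposited 1 intensity per probe set on a linear scale. Array software and scanner are not stated in the labels used. Each column had the same mean, 500.3, after trimming 2% at each end. Of 12488 probe sets in the table, 66 were controls and entered no test. Names came from the platform annotation, and 10817 probe sets were matched by gene identifier to RefSeq (GRCm38.p6) for current symbols.

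Columns were quantile normalized, set to a floor at the 20th percentile (35.1) and log2 transformed. Probe sets with a mean at or above the 40th percentile (104.6) were tested, 7453 in all. Limma 3.58.1 in R 4.3.3 (lmFit, eBayes with an intensity trend, 2 residual degrees of freedom) gave two-sided p-values, adjusted by Benjamini and Hochberg over all of them. The fits were a linear trend over hours and each sample against the other 3. On simulated data with 200 of 7453 probe sets changed, the trend fit called 4% of those changed by 1 log2 unit and 70% of those changed by 4, and the fit of the 1-hour sample called 8% and 78%. The simulated noise was normal and independent, with the residual SD of each probe set in the trend fit. It held no array that stood apart and no floor, so these shares need not hold for the real arrays.

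The genes, lists and tests were chosen with earlier results of these data known. List genes entered by their probe set with the highest mean. The text names every probe set of the 5 genes, the 4 tested genes of widest range on each pathway list and any with a trend that passed, the 3 nearest profiles of each member, and markers beside results. Sums of markers are of deposited signals over all list genes matched by symbol to a probe set. Marker lists for 11 cell types were summed. The sums of dentate, oligodendrocyte and microglia markers were 2446 to 2644, 20365 to 25357 and 8649 to 9777. Alternatives changed the normalization, floor, filter, prior, coding of time, probe set rule and the samples used.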

Additional observations from a re-analysis of the deposited data

Results flagged for a closer look

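The Bdnf value of the 6-hour sample lay far from the other 3 for a group of 4. The gap to its nearest neighbour was 0.836 of the whole range on the log2 scale, above Dixon's critical value for 4 samples at the 95% level. Among all tested probe sets 6.75% had a lowest or highest sample past that value, and chance alone gives about 1 in 20. The 6-hour sample was the one far below in 0.644% of tested probe sets. The figure of 1 in 20 counts any sample at either end, so it is not the chance share for that 1 sample and end. In Ntrk3 the 1-hour sample stood 0.818 of the range below its neighbour, just short of the critical value.

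The Ntrk2 value of the 2-hour sample met the same measure with 1.0 of the range, because the other 3 samples were all at the floor, which fixes the ratio. Its deposited signals were 52.5 there, against 14.6, 26.0 and 10.6 at 1, 4 and 6 hours.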

How the results depend on the processing

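No paired analysis was possible because the samples form 1 group. The call of Ntrk3 in the 1-hour sample was lost with the floor at the 40th percentile (-1.19, adjusted p = 0.210), with no filter on dim probe sets (-2.69, adjusted p = 0.139) and with eBayes without an intensity trend (-2.69, adjusted p = 0.0670), and its value was -2.82 to -2.52 when a sample was left out, losing the call without the 6-hour sample (adjusted p = 0.0652). With the filter at the 60th percentile Ntrk3 was not tested. The cause of each loss was not tested. Its range was 1.48 with the higher floor and 0.54 to 2.98 when a sample was left out. The range of Bdnf was 0.077 to 0.48 when a sample was left out, lowest without the 6-hour sample. The range of Ntrk2, which depends on where the floor is set, was 0.00 with the higher floor and 2.12 with a floor at the 5th percentile, and 0.00 to 0.55 when a sample was left out. The trend of Ntrk3 was 0.68 to 3.84 and that of Bdnf -0.60 to -0.002 when a sample was left out, and neither passed in any setting.

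Differences not called that changed sign were those of Bdnf in the 1- and 4-hour samples without the 6-hour sample (-0.046 and -0.024), with values up to 0.19 and 0.21 when another was left out, and those of Ntrk3 in the 2- and 4-hour samples without the 1-hour sample (-0.39 and -0.039), with values up to 1.09 and 1.43. The number of probe sets called in the 1-hour sample was 175, and it was 272 on values as deposited, 3 with the higher floor, 365 with no filter, 0 without an intensity trend in the prior (1176 had an unadjusted p under 0.05 with the trend), and 87 to 242 when a sample was left out. With no filter 217, 227 and 211 were called in the 2-, 4- and 6-hour samples, against 0 in each, and 0 to 1 in the 4-hour sample when a sample was left out. The trend called 0 to 3 probe sets when a sample was left out. Ranges of 1 log2 unit or more were found for 27.6% of all probe sets with no filter, 8.61% with the filter at the 60th percentile and 8.95% to 13.8% when a sample was left out. The number of list genes called lower in the 1-hour sample was 4, and it was 7 on values as deposited, 0 with the higher floor, 1 with no filter, 0 without an intensity trend and 1 to 6 when a sample was left out. For list genes the share of such ranges was 8.96% with the filter at the 60th percentile and 9.28% to 19.8% when a sample was left out. The number of arrays limits the precision, and so do, for Ntrk2 and the 1-hour value of Ntrk3, signals near the floor.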
